A study of Homo sapiens with 8 samples.

Results

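Replication-dependent histone genes were taken from the GENCODE 44 annotation of GRCh38 as the protein-coding genes named H1-1 to H1-6, or H2AC, H2BC, H3C or H4C with a number. The rule found 69 genes among 19389 protein-coding genes, namely 6 of class H1, 17 of H2A, 18 of H2B, 13 of H3 and 15 of H4. Of these, 55 lie in the histone cluster of chromosome 6, 13 on chromosome 1 and 1, H4C16, on chromosome 12. Poly(A) peaks that overlapped a window from the start of each gene to 4 kb after its end were assigned to that gene, so that a peak in the windows of neighbouring genes was assigned to each of them. The gene span was that of its basic, non-readthrough transcripts.

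Core histones of classes H2A, H2B, H3 and H4 form the protein spool of the nucleosome, and H1 is the linker histone that binds the DNA between nucleosomes. Messenger RNAs of the replication-dependent genes are made in S phase and normally end without a poly(A) tail. Their 3′ end is formed just after a conserved stem-loop, which is bound by the stem-loop binding protein SLBP and cut by a complex that contains U7 snRNP and the endonuclease CPSF3. A transcript that is not cut there can be cleaved further on and polyadenylated after a poly(A) signal such as AATAAA, and some histone genes have annotated polyadenylated isoforms of this kind.

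The peaks came from poly(A) 3′-sequencing of Kelly cells, a MYCN-amplified neuroblastoma line, and Kelly E9R cells, a derivative line in which the CDK12 cysteine bound by THZ531 is mutated. THZ531 is a covalent inhibitor of the kinases CDK12 and CDK13. Each line was given the solvent (Kelly_DMSO and Kelly_E9R_DMSO) or THZ531 (Kelly_THZ531_6h and Kelly_E9R_THZ531_6h) for 6 h, with 2 biological replicates a group and thus 8 libraries. The labels give a dose of 400 nM, whereas the study's methods give a lower dose for these lines. A supplementary figure legend on gene expression in both lines gives 400 nM. The authors merged the mapped reads of all libraries before they called peaks, so the deposited list holds 1 value per peak. No value per library, group or replicate, no comparison of treatments and no test between groups could be derived from it, and a peak may come from any of the 4 groups. The depth of each library is unknown, and the list has no strand, so the strand of a peak was taken from the gene whose window it fell in. The list held 153624 peaks, of which 144337 on chromosomes 1 to 22, X and Y were retained after peaks before a genomic A stretch without a poly(A) signal were removed. Of 10 adrenergic neuroblastoma markers, 10 had a peak at a transcript end, as did EPCAM, COL1A1 and GFAP among the markers of other cell types.

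All 69 genes had a stem-loop after the stop codon, starting 22 to 67 bases after it (median 35). The class H4 stem differed from that of the other classes in its base pairs. All 15 H4 genes had a stem that begins with GGCCC and ends with GGGCC, in the form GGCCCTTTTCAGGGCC at 10 genes and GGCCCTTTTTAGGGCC at 4 genes, whereas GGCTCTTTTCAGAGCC stood at 4 of 6 H1, 13 of 17 H2A, 12 of 18 H2B and 11 of 13 H3 genes. The stem-loops below belong to genes where a peak ended within 50 bp of the hairpin, and they are shown because the position of the peak end is read against them. They are given 5′ to 3′ on the gene strand of GRCh38 with T for U, and capitals mark the hairpin, namely both arms and the loop.
H4C2, chr6:26026892-26026921, minus strand: ccaatGGCCCTTTTCAGGGCCgcccactcc
H4C12, chr6:27831169-27831198, minus strand: caaaaGGCCCTTTTTAGGGCCcccactttc
H2AC20, chr1:149887386-149887415, plus strand: ccaaaGGCTCTTTTTAGAGCCacccaagtt
H2BC21, chr1:149886179-149886208, minus strand: ccaaaGGCTCTTTTCAGAGCCacccaccta
H1-2, chr6:26055735-26055764, minus strand: caaaaGGCTCTTTTCAGAGCCaccactgat

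Other peaks ended after a poly(A) signal, 35 bp past the stem-loop at H2BC5 and further on at H4C3, H3C13 and H3C6. The sequences below are the last 30 bases of such peaks, shown because they carry the signal at the sites that the results turn on, and capitals mark that signal.
H4C3, chr6:26104484-26104513, plus strand: gtaagcgctAATAAAgtgattggctccaca
H2BC5, chr6:26158608-26158637, plus strand: tgttttcAATAAAtgagttgtaatcatttc
H3C13, chr1:149812708-149812737, minus strand: aatttccacaaagtatagAATAAAaatgca
H3C6, chr6:26227447-26227476, plus strand: tgtaaAATAAAagattactgaacagaattt

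Of the 69 histone genes, 55 (79.7%, 95% Wilson interval 68.8 to 87.5) had at least 1 retained peak in the window. The same share was 75.7% of 19320 other protein-coding genes, and 42.6% of 1978 other protein-coding genes under 3.4 kb, a length limit used in the study. Among the 61 histone genes whose own span is under 3.4 kb, 47 (77.0%, interval 65.1 to 85.8) had a peak. The 8 longer members, whose annotation includes an extended isoform, all had a peak. Their windows are longer too, since each covers the whole span, which reaches 29685 bp at H2BC18. All but H2AC6 are of class H2B, so the H2B counts rest in part on longer windows. The intervals cover counting error only, and neighbouring histone genes can share a peak, so they are not independent draws.

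Shares by class ran from 73.3% to 83.3% and did not separate the classes. A peak was found for 5 of 6 H1 genes (83.3%, interval 43.6 to 97.0), 14 of 17 H2A genes (82.4%, 59.0 to 93.8), 15 of 18 H2B genes (83.3%, 60.8 to 94.2), 10 of 13 H3 genes (76.9%, 49.7 to 91.8) and 11 of 15 H4 genes (73.3%, 48.0 to 89.1). Every pair of these intervals overlaps. The 14 genes without a retained peak were H1-1, H2AC1, H2AC8, H2AC15, H2BC1, H2BC3, H2BC10, H3C3, H3C8, H3C14, H4C1, H4C6, H4C7 and H4C9. H2AC1 and H2BC1, which lie side by side and encode the testis forms of H2A and H2B, are among them.

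**Figure D1:**
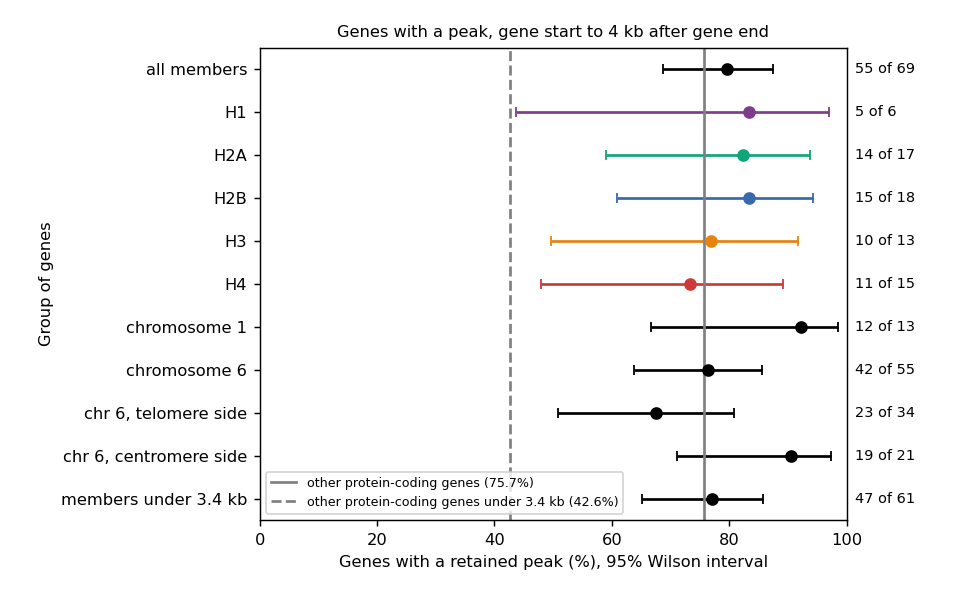
Share of genes with a retained poly(A) peak from gene start to 4 kb after gene end (x axis, %), by group of histone genes (y axis). Points are shares, bars are 95% Wilson intervals, counts stand at the right, and vertical lines give other protein-coding genes (75.7%, solid) and those under 3.4 kb (42.6%, dashed). The class intervals overlap each other, and the interval of members under 3.4 kb, 65.1 to 85.8%, lies above the dashed line.

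The share was higher in the centromere-side group of chromosome 6 than in the telomere-side group, with intervals that overlap. On chromosome 6, 42 of 55 genes (76.4%, interval 63.7 to 85.6) had a peak, made of 23 of 34 (67.6%, 50.8 to 80.9) between chr6:25726063-26285534 and 19 of 21 (90.5%, 71.1 to 97.3) between chr6:27125897-27893891. On chromosome 1, 12 of 13 genes (92.3%, interval 66.7 to 98.6) had a peak, and H4C16 on chromosome 12 had 1 peak, ending 3465 bp after the stem-loop. Of the 14 genes without a peak, 11 thus lie in the telomere-side group of chromosome 6.

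The chromosome 1 share rests partly on repeated sequence. Among the 22 distinct peaks there, 10 held no 75-base stretch found once in the genome, against 1 of 68 on chromosome 6. The study kept reads with up to 20 placements, so a read from a repeated gene can be placed at another copy. H2AC18, H2AC19, H3C15, H4C14 and H4C15, all on chromosome 1, had peaks on repeated sequence alone. H2AC18 and H2AC19, a mirrored pair of H2A genes, had peaks of pileup 40 and 37 that ended 268 and 261 bp after the stem-loop, and reads of these copies cannot be told apart. With only peaks that held a unique 75-base stretch, 7 of 13 chromosome 1 genes had a peak.

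The windows held 91 distinct retained peaks, which made 118 pairs of a gene and a peak, and 6 further peaks had been removed. The pileup at the summit, the number of extended reads over that position in the merged libraries (or of read positions, if duplicate reads were dropped), ran from 9 to 57 with a median of 18. The fold enrichment over the local background had a median of 6.05. The study applied a −log10 q of 5 as its own threshold for peaks, and 79 of the 91 reached it. At that threshold 52 of 69 genes (75.4%) kept a peak, beside 73.4% of other protein-coding genes and 40.1% of the short ones. H3C2, H3C7 and H4C15 had weaker peaks alone.

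The strongest peak of a histone gene had a lower median fold than that of other genes with a peak. The median fold enrichment of the strongest peak was 7.73 over the 55 histone genes, 12.1 over other protein-coding genes and 10.9 over the short ones. The median −log10 q was 13.1 for histone genes, 21.9 for other genes and 18.7 for short genes, while the median pileup of 21 for histone genes was close to the 24 and 21 of these sets. By class, the median −log10 q fell in the order H1 (21.7), H2A (17.4), H2B (12.9), H3 (12.4) and H4 (8.45), and the ranges of the classes overlap widely. For H1 the range was 12.4 to 51.8 and for H4 it was 4.32 to 51.8, the same highest peak being in both, as described under H1-6. The strongest peak of 3 of the 5 H1 genes overlaps another histone gene (H2BC5, H2AC16 or H4C3). When peaks that overlap another protein-coding gene were left out, an alternative chosen after seeing the data, the medians were 13.1 for 13 H2A genes, 12.9 for 15 H2B genes, 12.4 for 10 H3 genes, 11.2 for 4 H1 genes and 8.73 for 10 H4 genes, so H1 was no longer highest.

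**Figure D2:**
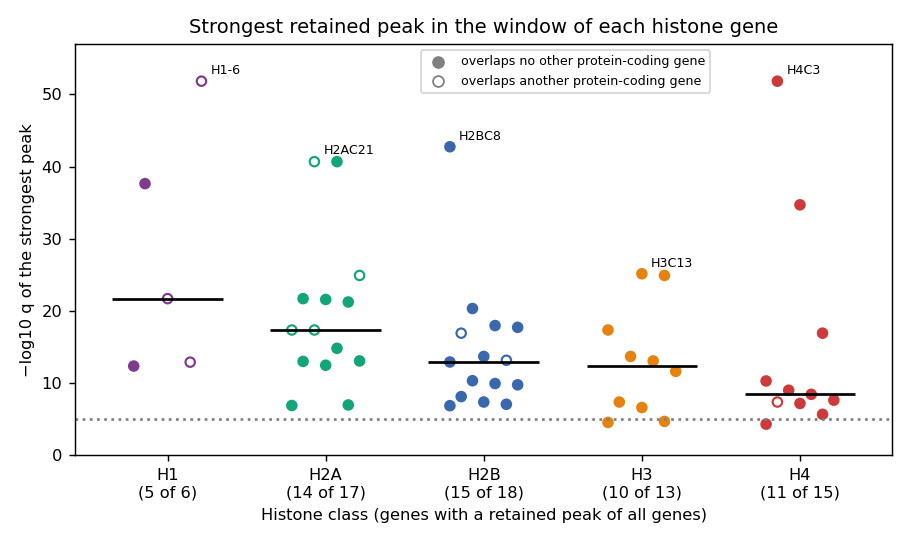
The −log10 q of the strongest retained peak (y axis) of each of the 55 histone genes with a peak, by class (x axis, with the number of genes). Bars are class medians, open circles are genes whose strongest peak overlaps another protein-coding gene, the dotted line marks a −log10 q of 5, and horizontal jitter has no meaning. Class medians run from 21.7 (H1) to 8.45 (H4), and the points of the classes overlap. Open circles make up 3 of the 5 H1 points.

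Measured from the last base of the stem-loop, peak ends on the gene strand fell into a group at the hairpin and a broad group after it. At 14 genes a peak ended within 50 bp of the stem-loop. At 47 genes a peak ended more than 50 bp past it, and 36 genes had peaks past it alone. Peaks both at and past the stem-loop were found at 8 genes, and 6 genes had a peak at it with none past it. Of the 118 pairs, 10 ended more than 50 bp before the stem-loop, 14 at it, 7 from 51 to 200 bp after it, 9 from 201 to 500, 9 from 501 to 1000, 54 from 1001 to 4100 and 15 beyond.

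The annotated end of most of these genes is the cut site after the hairpin: it lies 5 bases after the stem-loop at 41 genes and within 10 bases at 55. A peak ended within 10 bp of the annotated end at 13 of 69 genes (18.8%), beside 38.1% of other protein-coding genes and 18.3% of the short ones. Within 50 bp the count was 20 of 69 (29.0%), beside 45.4% and 23.1%. Not all of these ends are the cut site. The 13 genes include H2AC25, H2BC5, H2BC26, H3C6 and H3C10, whose annotated end lies more than 300 bases after the stem-loop. The 20 include 8 such genes. More than 50 bp after the annotated end, 42 of 69 histone genes (60.9%) had a peak, against 30.3% of other protein-coding genes and 27.7% of the short ones.

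**Figure D3:**
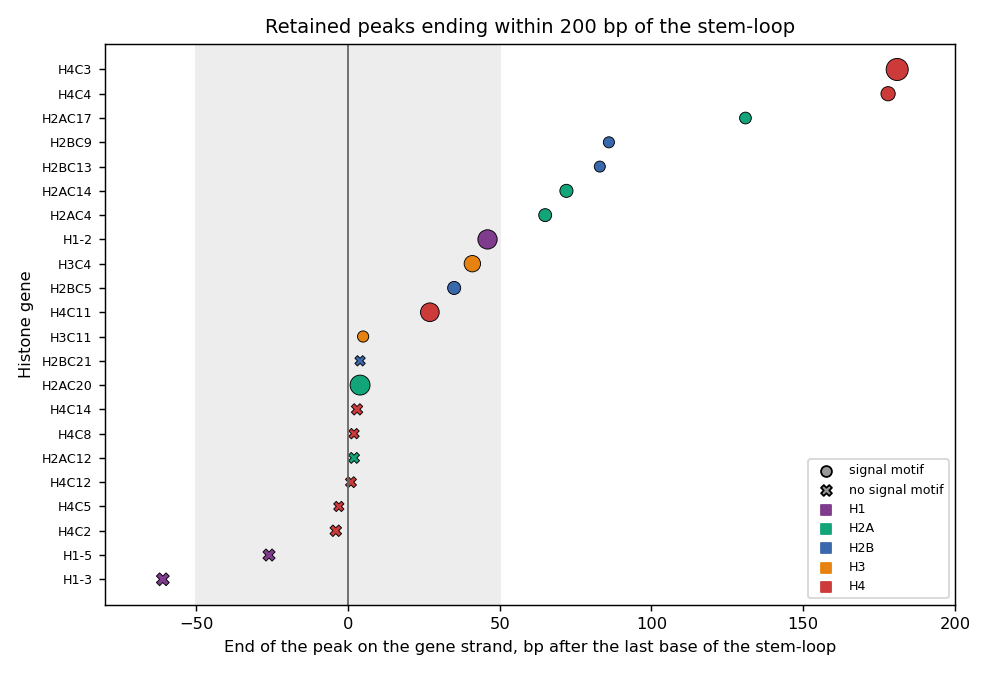
End of each retained peak on the gene strand (x axis, bp after the last base of the stem-loop) for the 22 peaks within 200 bp, ordered by position with the gene on the y axis. Colour gives the class, circles have a poly(A) signal motif in the 100 bp before the peak end, crosses have none, symbol size grows with −log10 q, and the grey band marks 50 bp on either side. Peaks within 5 bp of the stem-loop are mostly crosses (7 of 9), and the peaks from 27 to 181 bp after it are circles.

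Peaks that ended within 5 bp of the stem-loop mostly lacked a poly(A) signal. There were 9 of them, at H4C2, H4C5, H4C8, H4C12, H4C14, H2AC12, H2AC20, H2BC21 and H3C11, of which several are named here after their values were seen. None of the 12 motifs that the study counted as poly(A) signals stood in the last 100 bp of 7 of the 9. Among other protein-coding genes under 3.4 kb, 95.7% of the 302 peaks that ended within 5 bp of the annotated gene end had such a motif. Of the 9 peaks, 8 were followed by no A-rich sequence (at least 6 consecutive A, or 7 within 10 bases), a feature at which an oligo(dT) primer can bind inside a transcript.

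Class H4 held 5 of these 9 peaks, all 5 without a motif and without A-rich sequence. The peak of H4C2 (chr6:26026905-26027210) ended 4 bp before the last base of the hairpin, with a fold of 6.25, a −log10 q of 8.45 and a pileup of 16. That of H4C5 ended 3 bp before it with a pileup of 14, and those of H4C12, H4C8 and H4C14 ended 1, 2 and 3 bp after it with pileups of 14, 11 and 24. All 5 were thus low peaks, with a −log10 q between 4.96 and 8.45. These values are those of the summit, whereas the position is that of the 3′ edge, and the 2 were not compared. The peaks of H4C2 and H4C12 were 306 and 373 bp wide, so their pileup need not count reads that end at the hairpin. The H4C14 peak lies wholly on repeated sequence, and 7.36% of the 75-base stretches in the H4C12 peak were unique. Outside H4, the peak of H2AC12 ended 2 bp after the hairpin (pileup 14), and that of H2BC21 ended 4 bp after it (pileup 13), both without a motif.

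The strongest peak that ended at a hairpin belonged to H2AC20, an H2A gene of chromosome 1. It lay at chr1:149887249-149887410 and ended 4 bp after the stem-loop, with a fold of 15.6, a −log10 q of 40.7 and a pileup of 45. AATAAA stood 51 bases before its end, and A-rich sequence followed it. H2AC21 is transcribed towards H2AC20 from the other strand, and the same peak falls in its window. All 4 peaks assigned to H2AC21 overlap H2AC20 or H2BC21, so none can be given to H2AC21 alone.

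From 6 to 50 bp after the stem-loop, all 4 peaks had a motif. H1-2, a linker histone gene, had its single peak there (chr6:26055698-26056084), ending 46 bp after the hairpin, with a fold of 15.9, a −log10 q of 37.6 and a pileup of 40, and AATAAA stood 34 bases before the end. The peak of H4C11 (chr6:27824371-27824501) ended 27 bp after the hairpin with a fold of 16.2 and a −log10 q of 34.7, and its AATAAA began 50 bases before the end, which is before the hairpin. H2BC5 ended 35 bp after its hairpin with the AATAAA printed above (pileup 24). H3C4 ended 41 bp after it with TATAAA (fold 11.5, −log10 q 24.9, pileup 32).

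From 51 to 200 bp after the stem-loop, 7 of 7 peaks had a motif and 0 of 7 were followed by A-rich sequence. They belonged to H2AC4 (65 bp, ATTAAA), H2AC14 (72 bp, CATAAA), H2BC13 (83 bp, CATAAA), H2BC9 (86 bp, AATACA), H2AC17 (131 bp, AATAAA), H4C4 (178 bp, ATTAAA) and H4C3 (181 bp, AATAAA). For comparison, 46.7% of the 122 peaks that lay 51 to 200 bp after the annotated end of other short genes had a motif and 21.3% were followed by A-rich sequence. Further out, some histone pairs lacked a motif or were followed by A-rich sequence. From 1001 to 2000 bp, 15 of 23 pairs had a motif and 12 of 23 A-rich sequence, beside 49.3% and 26.9% of the peaks at that distance from other short genes. From 2001 to 4100 bp, 19 of 31 pairs had a motif and 15 of 31 A-rich sequence, beside 54.5% and 30.1%.

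**Figure D4:**
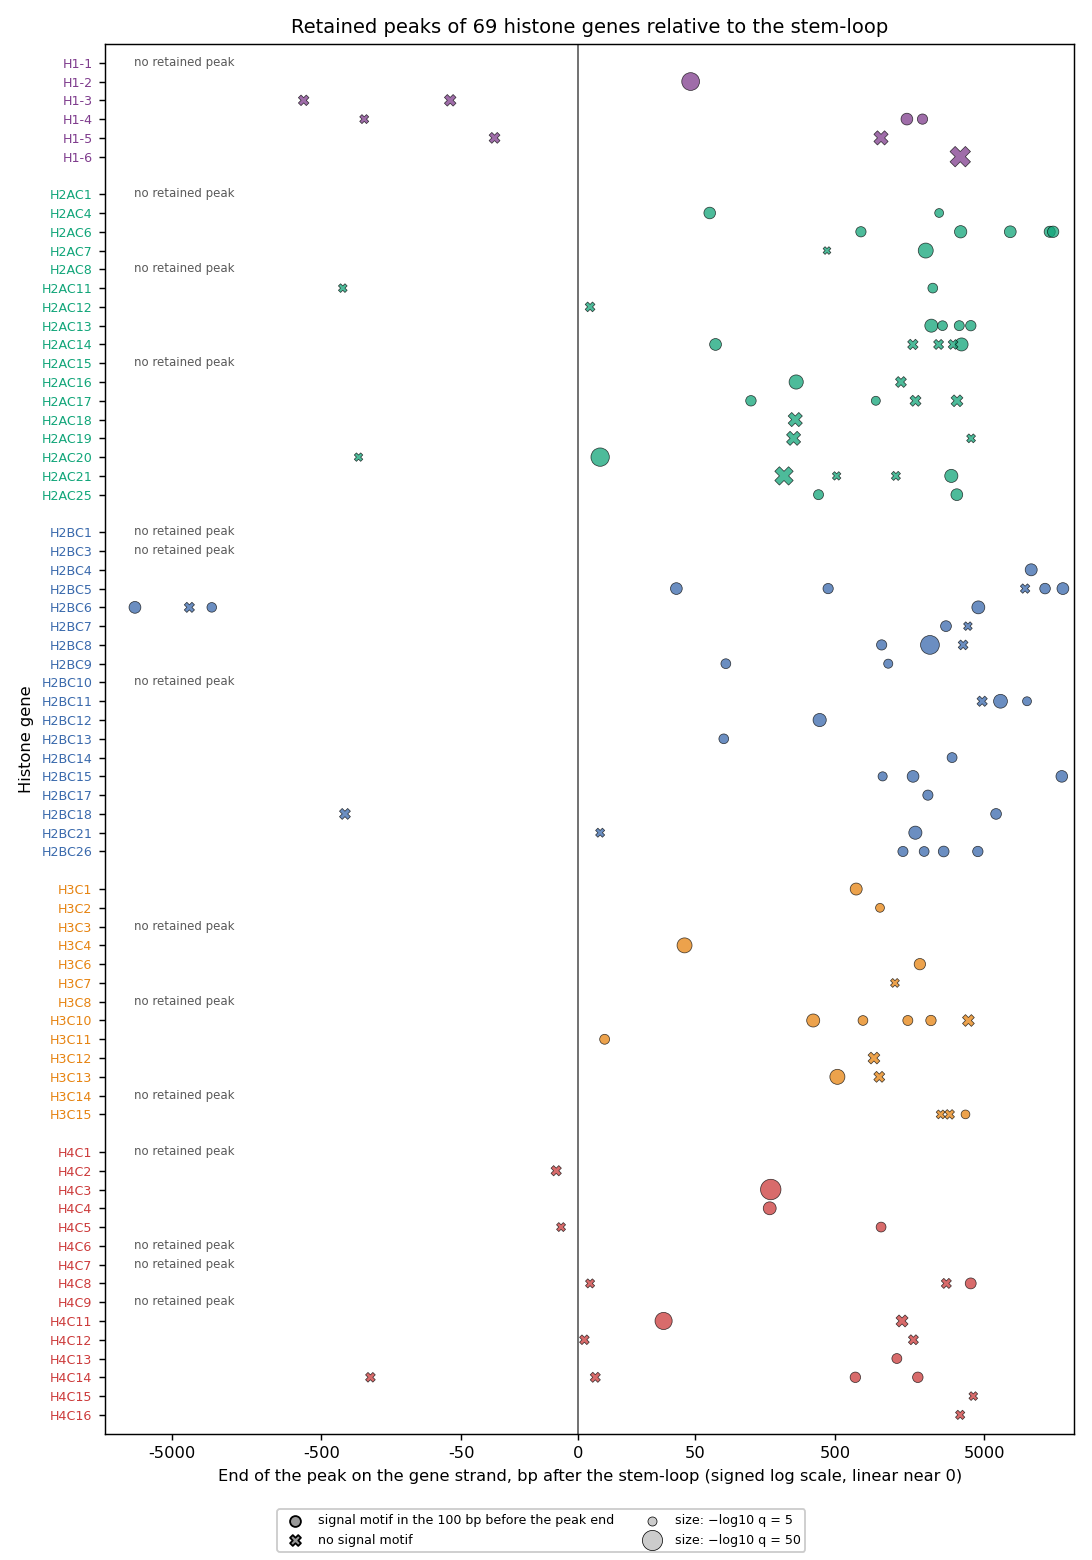
Retained peaks of all 69 histone genes (y axis, coloured by class), placed by the end of the peak on the gene strand in bp after the stem-loop (x axis, signed log scale). Circles have a poly(A) signal motif in the last 100 bp, crosses have none, symbol size grows with −log10 q, and a peak in several windows is drawn once per gene. At 36 genes the peaks lie past the stem-loop alone, and 14 genes have no retained peak.

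At 12 genes the annotation ends more than 300 bases after the stem-loop, at the end of a longer isoform. A peak ended within 50 bp of that annotated end at 8 of the 12 (H2AC6, H2AC25, H2BC5, H2BC11, H2BC21, H2BC26, H3C6 and H3C10), and 8 of these 8 peaks had AATAAA or ATTAAA. The peak of H3C6 ended 3 bp after the annotated end and 1865 bp after the stem-loop, with a fold of 8.33 and a pileup of 16. A-rich sequence followed this H3C6 peak. The peak of H2BC11 at chr6:27125885-27126168 ended 12 bp after the annotated end and 6436 bp after the stem-loop, with a fold of 11.2 and a −log10 q of 20.3. At the other 57 genes, 12 had a peak within 50 bp of the annotated end.

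Class H1 had 9 pairs at 5 genes, of which 3 carried a motif on the gene strand. Besides H1-2, H1-3 had 2 peaks inside the gene, ending 61 and 660 bp before the end of the stem-loop with pileups of 16 and 13, and both lacked a motif and were followed by A-rich sequence. The window of H1-4 held 3 peaks. The first ended 255 bp before the stem-loop without a motif and before A-rich sequence (pileup 14), and the others, 1527 and 1942 bp after it, overlap H2BC5. The window of H1-5 held a peak that ended 26 bp before the stem-loop (fold 6.60, pileup 19, no motif, A-rich sequence after it) and a stronger peak that overlaps the end of H2AC16 (fold 10.6, −log10 q 21.7). The single retained peak in the window of H1-6, the testis linker histone, is that of H4C3 on the other strand. Without peaks that overlap other protein-coding genes, 4 of 6 H1 genes kept a peak.

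Class H2A had 38 pairs at 14 genes, and the nearest peak past the stem-loop lay at a median of 270 bp in the 12 genes that had such a peak up to 4100 bp from it. That median was 1050 bp for 11 H2B genes, 963 bp for 8 H3 genes, 1308 bp for 9 H4 genes and 1527 bp for 3 H1 genes, and these differences were not tested. At the 3 H1 genes, H1-4, H1-5 and H1-6, every peak past the stem-loop overlaps another histone gene. The H4 median is the distance at H4C13, whose peak overlaps H3C11. The 12 H2A genes include H2AC21, whose nearest peak at 224 bp is that of H2AC20. They also include H2AC18 and H2AC19, whose peaks at 268 and 261 bp lie on repeated sequence and stand close to the median. H2AC16 had a peak 272 bp past the stem-loop with AATAAA (−log10 q 21.7), and H2AC14 had 5 peaks in its window, of which the nearest, which overlaps the gene, ended 72 bp past it (fold 6.28, −log10 q 13.1, pileup 28). The same 5 peaks fall in the window of H3C10 on the other strand, and 4 of them also in that of H2AC13. H2AC7 had a weak peak of its own 442 bp past the hairpin (fold 3.11, −log10 q 1.95, pileup 9), and its strongest peak is that of H3C4. H2AC6, with an annotated span of 14913 bp, had 5 peaks of −log10 q 8.42 to 14.8, all with a motif, from 750 to 14427 bp after the stem-loop, and A-rich sequence followed 3 of the 5.

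Class H2B had 35 pairs at 15 genes, and every one of those 15 genes had a peak with a motif. Over all classes 43 of 69 genes (62.3%) had a peak with a motif on the gene strand, beside 70.7% of other protein-coding genes and 34.8% of the short ones, and the counts were 2 of 6 for H1, 11 of 17 for H2A, 15 of 18 for H2B, 8 of 13 for H3 and 7 of 15 for H4. The peak of highest pileup in any histone window belonged to H2BC8. It lay at chr6:26214040-26214204 and ended 2178 bp after the stem-loop, with a fold of 12.5, a −log10 q of 42.8 and a pileup of 57, with AATAAA before its end and A-rich sequence after it. H2BC12 had a single peak 394 bp after the hairpin with AGTAAA (fold 9.09, −log10 q 18.0, pileup 27). H2BC26 had 4 peaks of pileup 18 to 21 between 1437 and 4546 bp after its hairpin, each with AATAAA or ATTAAA, the last of them 5 bp before the annotated end. A-rich sequence followed 3 of the 4, the last included.

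Class H3 had 17 pairs at 10 genes, and 2 of its peaks ended at the stem-loop, at H3C4 and H3C11. H3C13 had its strongest peak at chr1:149812708-149812954, which ended 520 bp after the hairpin with a fold of 13.5, a −log10 q of 25.2 and a pileup of 27, and 34.7% of its 75-base stretches were unique. The window of H3C10 held the 5 peaks that it shares with H2AC14, of pileup 21 to 34, and 2 of them overlap H3C10 itself. The nearest ended 356 bp after the hairpin with AATAAA (−log10 q 17.4), and a later one, which ended 774 bp after the hairpin, lies 5 bp past the annotated end. H3C15 had 3 peaks of pileup 16 to 20, from 2567 to 3761 bp past the hairpin and on repeated sequence. H3C1 had a single wide peak (chr6:26021081-26021644) that ended 697 bp after its hairpin with TATAAA (fold 8.85, −log10 q 13.7, pileup 19). This peak stops 5 bp before the start of H4C1, which had no peak.

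Class H4 had 19 pairs at 11 genes and the peak of highest −log10 q among all histone windows. That peak, at chr6:26103946-26104513, covers H4C3 from 13 bp after the gene start, spans the stem-loop and ended 181 bp after it, with a fold of 21.8, a −log10 q of 51.8 and a pileup of 46. The AATAAA printed above stood 21 bases before its end. H4C4 showed a like arrangement at lower height, with a peak that ended 178 bp after the hairpin with ATTAAA (fold 10.0, −log10 q 16.9, pileup 22). H4C8 had 3 peaks, the one at the hairpin and others 2802 and 4075 bp after it, and the farthest was the strongest (fold 7.20, −log10 q 10.3, pileup 17). H4C14 had 4 peaks of pileup 22 to 27, all on repeated sequence. The only peak in the window of H4C13 is the one that ended at the hairpin of H3C11.

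Windows that reach a neighbour touched H2A most. The window of 21 of 69 histone genes reached another protein-coding gene, against 38.6% of other short genes, and 20 of the 21 reached another histone gene. By class the counts were 3 of 6 for H1, 10 of 17 for H2A, 2 of 18 for H2B, 4 of 13 for H3 and 2 of 15 for H4. Of the 91 distinct peaks, 23 fell in the windows of 2 or more histone genes and 12 in windows of genes on both strands. Leaving out peaks that overlap other protein-coding genes kept 52 of 69 histone genes (75.4%), beside 69.7% of other protein-coding genes and 29.6% of the short ones, and the 3 genes lost were H1-6, H2AC21 and H4C13. Noncoding genes and pseudogenes were not checked as neighbours, so a peak counted for a histone gene can belong to one of them. Within the gene alone, without the 4 kb after it, 35 of 69 genes (50.7%) had a peak, beside 72.8% and 34.4%. By class these were 4 of 6 for H1, 10 of 17 for H2A, 9 of 18 for H2B, 4 of 13 for H3 and 8 of 15 for H4.

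Poly(A) signals were counted over the 79 distinct peaks that fell in windows of 1 strand only. Any of the 12 motifs stood in the last 100 bp of 49 of them on the gene strand (62.0%, interval 51.0 to 71.9), against 31.6% in the matching stretch on the opposite strand. AATAAA or ATTAAA alone stood in 44.3% on the gene strand and 13.9% on the opposite strand. Among other short genes the 12 motifs stood in 66.2% of 1498 peaks on the gene strand and 49.9% on the opposite strand. Among all other protein-coding genes they stood in 60.8% of 114764 peaks on the gene strand and 41.6% on the opposite strand, so the histone share on the gene strand was close to both. Among the 79, the share on the gene strand by class was 78.8% of 33 H2B peaks (interval 62.2 to 89.3), 60.9% of 23 H2A peaks (40.8 to 77.8), 54.5% of 11 H3 peaks (28.0 to 78.7), 3 of 6 H1 peaks (18.8 to 81.2%) and 37.5% of 16 H4 peaks (18.5 to 61.4). A peak in windows of more than 1 class counts in each, and the H4 interval lies just below that of H2B while every other pair overlaps. These intervals treat peaks as independent, although 1 gene can give several, such as the 4 of H4C14 on repeated sequence. A difference between the classes was not tested. A-rich sequence followed 41.8% of the 79 peaks on the gene strand and 13.9% on the opposite strand, and its part in the peaks was not tested. On the gene strand it followed 23.5% of the peaks of other short genes and 66.7% of those of other protein-coding genes. With a motif required and A-rich sequence excluded, 36 of 69 genes (52.2%) kept a peak, beside 67.0% of other protein-coding genes and 31.4% of the short ones. The counts were then 2 of 6 for H1, 10 of 17 for H2A, 12 of 18 for H2B, 7 of 13 for H3 and 5 of 15 for H4.

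Genes that act on histone transcripts or their 3′ ends were looked up in the same list of peaks. Of 16 such genes listed, among them SLBP, LSM10 and LSM11 of U7 snRNP, NPAT and CPSF3, 16 had a peak in the window. The share was 75.7% over other protein-coding genes. A peak at a transcript end was found for 15 of the 16, the exception being CASP8AP2. The like share over other protein-coding genes was not counted. The strongest SLBP peak had a fold of 18.2 and a −log10 q of 37.9, and the strongest peaks of the list had a median fold of 12.2. At LSM11, CASP8AP2, CPSF2, CSTF2, NCBP1, SRRT, ERI1 and WDR33 the strongest peak was not at a transcript end. For SRRT the fold was 12.8 at the strongest peak and 7.94 at the transcript end. Replacement histones, which are not made in S phase alone and have polyadenylated transcripts, had a peak at 10 of 10 genes. Their strongest peaks had a median fold of 13.6 and a median −log10 q of 41.5. The strongest peak of H2AZ1, a replacement H2A, had a fold of 22.9 and a −log10 q of 74.7, whereas H2AJ had a fold of 7.33 and a −log10 q of 8.32, below the median of the H2A class.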

How the data were processed

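Poly(A) 3′-sequencing libraries (QuantSeq 3′ mRNA REV) of 8 samples in 4 groups were trimmed, mapped by the authors with STAR 2.5.1b to GRCh38 and spike-in sequences with up to 20 placements a read kept, and merged before MACS2 2.1.1 called peaks with reads extended to 100 bp. The deposited list gives, per peak, a score (10 times the −log10 q), a fold enrichment (a ratio to the local background), a −log10 p and a −log10 q, and the summit position. The genome size, q threshold and duplicate setting of MACS2 are not given in the sources used here. If MACS2 kept 1 read per start position and strand, its default, the pileup counts positions rather than reads. No column gave a value per sample, so depth per library is unknown, and columns of other samples numbered 0.

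Peaks were read with Python 3.11.15 and pandas 2.3.3. No peak on chromosomes 1 to 22, X and Y passed the end of its GRCh38 chromosome (0 of 153021). After the study's rule, peaks were removed when a 25-base A stretch (up to 3 mismatches) lay in the 50 bp after the end and no poly(A) signal in the 100 bp before it. The 12 signals were AATAAA and 11 variants with 1 changed base, searched on the gene strand with overlaps allowed: variant CATAAA, variant GATAAA, variant TATAAA, variant ACTAAA, variant AGTAAA, variant ATTAAA, variant AAGAAA, variant AATGAA, variant AATACA, variant AATAGA and variant AATATA. The 3′ edge of a peak on the gene strand was taken as the cleavage site, and the position of the summit was not used. The whole pileup was solved from the deposited fold and −log10 p with a Poisson background, to within 0.001 in −log10 p for 100% of peaks. Stem-loops were hairpins with 6-base arms and a 4-base loop, starting with GG, with at most 1 unpaired position. Counts of peaks at and past the hairpin use the best-paired, most downstream hairpin, and distances per gene use the hairpin after the stop codon, the same at 67 of 69 genes (H2BC18 and H3C11 differ). Uniqueness was counted over 75-base stretches on both strands. Shares carry 95% Wilson intervals (SciPy 1.17.1), and no test was run, since 1 merged list has no replicates. The steps were tested on simulated data.

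Members and lists were chosen with earlier results of these data known. Named with values were, in each class, the 3 genes with the strongest peak and the 2 with most peaks, H3C1 and H4C1, and up to 5 genes with peaks past the stem-loop alone. Other genes with values (among them those at the hairpin, H2AC16, H2AC18, H2AC19 and H3C6) were chosen after their values were seen. Alternatives covered the removal rule, the q threshold, the window, overlap, motif, A-rich sequence, uniqueness and gene span. The result for a marker gene of another cell type is not reported here.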

Additional observations from a re-analysis of the deposited data

How the results depend on the processing

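Of the counts of genes with a peak, that over all 69 histone genes was 55 and changed most for the gene alone (35) and when peaks needed a motif without A-rich sequence after them (36). For the gene alone, 9 H2B genes, 4 H3 genes and 27 chromosome 6 genes had a peak. With a motif required, 2 H1 and 7 H4 genes kept a peak, and with A-rich sequence excluded too, 2 H1 and 5 H4 genes. On chromosome 1, 7 genes kept a peak with a unique 75-base stretch. Peaks ending within 25 bp of the best-paired, most downstream hairpin were found at 8 genes, against 14 within 50 bp, and at 9 with the stop-codon hairpin. Past the stem-loop, limited to 500 bp, 16 genes had a peak, an alternative chosen after seeing the data, as were a window anchored at the stem-loop, the stop-codon hairpin and medians of the strongest peak without those that overlap another gene, where that of H1 moved from 21.7 to 11.2. AATAAA and ATTAAA alone stood in 44.3% of peaks. The other alternatives left every count within 1.5 times its reported value. No paired analysis was possible because the authors merged all libraries into 1 list, and for the same reason no library could be left out. A pileup of 9 to 57 over 8 merged libraries limits the precision, and a gene without a peak had none detectable at this depth. The exception is H2AC8, whose only peak was removed by the rule for A stretches.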
